A study of Mus musculus with 2 samples.

Results

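H/ACA box small nucleolar RNAs (snoRNAs) were followed in OCCM-30 cells, an immortalized mouse cell line that resembles cementoblasts, which form the cementum of tooth roots. They were taken as the rows of the count table with the gene type snoRNA and a symbol beginning with Snora or Scarna. This gave 38 of 44792 rows, all of them Snora genes, among 123 rows of that gene type. The 9 Scarna rows of the table carry the gene type miscRNA and fell outside the definition. The 2 libraries came from wild type OCCM-30 cells under compressive force and from wild type control OCCM-30 cells, with 1 library each. How strong the force was, how long it lasted and whether the libraries were enriched for polyadenylated RNA is not stated in the labels, and OCCM-30 is a single line. Total RNA was extracted, and the question of the series was how the transcriptome, its noncoding part included, differs under compression.

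H/ACA snoRNAs fold into a pair of hairpins, with a hinge box (H) between them and the trinucleotide ACA near the end of the molecule. Each hairpin can pair with ribosomal RNA and direct the enzyme dyskerin (Dkc1) to turn a chosen uridine into pseudouridine. In vertebrates most of them are cut out of introns of host genes, many of which encode ribosomal proteins and translation factors, while other hosts are noncoding RNAs. Related RNAs of Cajal bodies, the scaRNAs, guide the same change on spliceosomal RNAs.

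The libraries held 24296292 counts under compressive force and 25049919 counts in the control, with 21227 and 20945 rows detected. Levels are given as CPM, counts scaled to a common depth with effective library sizes from the trimmed mean of M-values (TMM). Ratios are of compressive force over control with a prior count of 0.5, and each has an exact 95% counting interval in parentheses. With 1 library in each group there is no replicate check and no test, the values compare libraries rather than conditions, and the intervals cover counting error only. A row was called higher or lower when its CPM reached 1 in either library, its ratio was at least 2 or at most 0.5, and its interval excluded 1. The cementoblast markers Ibsp and Bglap had 0 and 12 counts under compressive force and 0 and 11 in the control, while Runx2, Sp7, Alpl and Spp1 had between 98 and 5788 counts in the libraries. Of 11 markers of macrophages and osteoclasts, endothelium and epithelium, 6 reached a CPM of 1 in a library. Cd68 was the most abundant, with 150 counts under compressive force and 143 in the control. In the same order, Vwf had 84 and 70 counts, Ctsk 50 and 62, Csf1r 39 and 44, Krt8 27 and 23, and Pecam1 21 and 32. Acp5 and Cdh5 had at most 2 counts in a library, and Ptprc, Epcam and Krt18 were at 0 in both.

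All 38 members had a RefSeq position on the mouse build GRCm38.p6, and each lay inside the span of another gene, 32 host genes in all. The annotated members measured between 56 and 205 bases, with a median of 120.5. Of the 32 hosts, 29 were matched to a promoter in the RefSeq table. Host transcripts often begin with a C followed by a run of C and T, the start of terminal oligopyrimidine mRNAs, whose translation follows the supply of nutrients. Promoters were read on the strand that has the sequence of the transcript. A C opening an unbroken run of at least 5 C or T within 5 bases of the annotated start was found in 13 of 29 hosts (44.8%). The same run stood in 18.5% of 27025 promoters and in 20.3% of 9067 promoters of genes above the CPM minimum. The run was 20 bases long in Rpl27a, the host of Snora3, and 10 bases in Ipo7, the host of Snora23. The windows of 100 bases around the annotated starts of Snhg12, Snhg8 and Rpsa are shown because these genes contain Snora44, Snora24 and Snora62, the members above the CPM minimum with the lowest ratios. They are RefSeq sequence of GRCm38.p6 at chr4:132308628-132308727 (plus strand), chr3:123508287-123508386 (minus strand) and chr9:120127716-120127815 (plus strand), each with 50 bases before the start, and capitals mark the run.
Snhg12: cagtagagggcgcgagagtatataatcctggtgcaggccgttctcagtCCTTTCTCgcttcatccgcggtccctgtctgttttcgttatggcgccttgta
Snhg8: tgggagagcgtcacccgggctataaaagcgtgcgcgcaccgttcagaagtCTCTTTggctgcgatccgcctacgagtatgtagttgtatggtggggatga
Rpsa: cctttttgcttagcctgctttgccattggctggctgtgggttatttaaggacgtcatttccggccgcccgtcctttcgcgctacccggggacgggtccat
Snhg12 and Snhg8 held runs of 8 and 6 bases at the start, and Rpsa held none within 5 bases of its annotated start. The Rpsa window also holds a run of C and T further downstream, which was not counted. Where transcripts begin in these cells was not tested, so a host without a counted run may still have such a start. A match in letters is a description and not evidence of a site.

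Counts were found for 37 of the 38 members in each library. Together they had 2767 counts, 113.9 CPM, under compressive force and 3377 counts, 134.8 CPM, in the control. The summed ratio was 0.845 (0.804 to 0.889), so the summed H/ACA signal was lower under compressive force by more than counting error. Reads came unevenly from the members. The 5 with the most counts over both libraries, Snora81, Snora2b, Snora65, Snora19 and Snora68, held 36.3% of the member counts under compressive force and 39.9% in the control. Per length, Snora19 stood first, with 307 counts per 100 annotated bases under compressive force and 362 in the control, but its annotated span of 56 bases is the shortest of all. Snora2b followed with 213 counts per 100 bases under compressive force and 285 in the control, and Snora81 with 184 under compressive force and 253 in the control. Per length, the order of these leaders was shared by both libraries. In bulk RNA, fewer cells that make an RNA and less of it in each cell cannot be told apart.

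**Figure D1:**
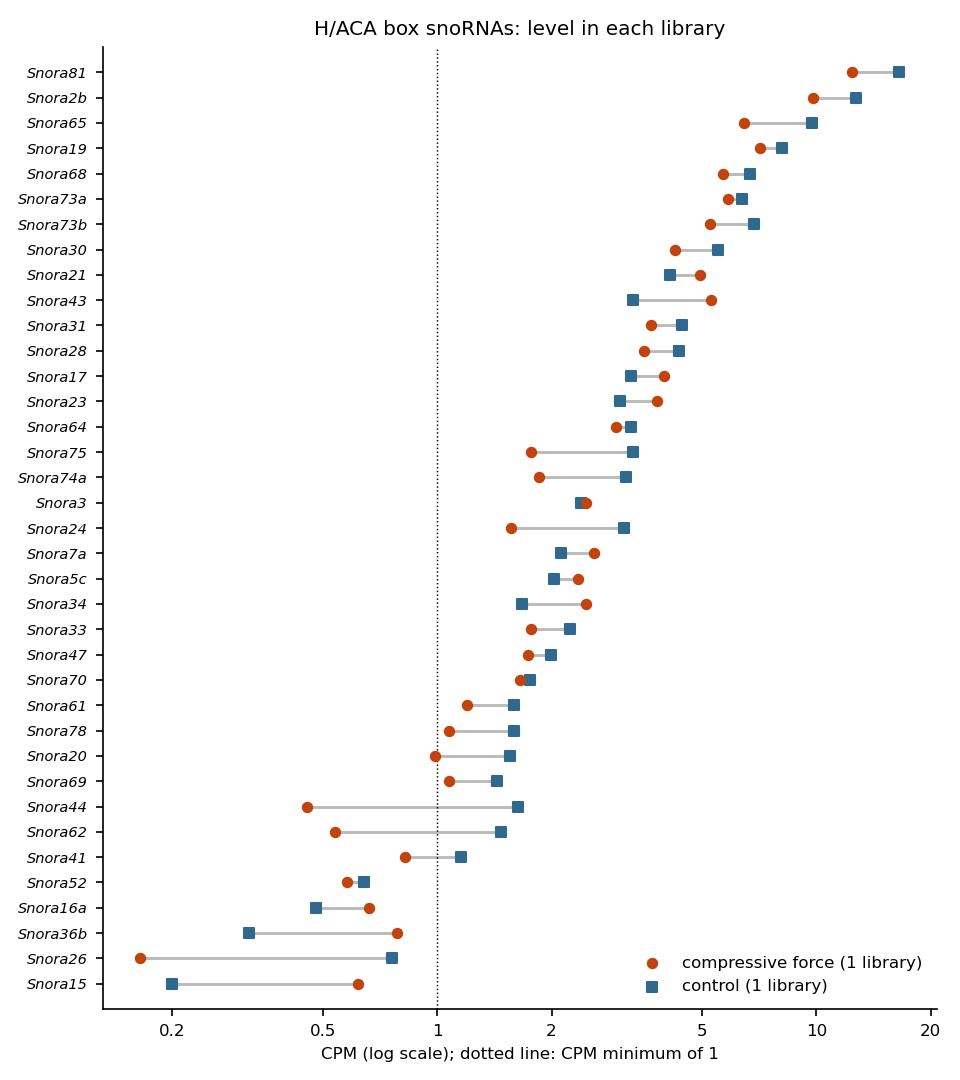
CPM of each of the 37 detected H/ACA snoRNAs (log scale) in the compressive force library (circles) and the control library (squares), 1 library each, ordered by counts summed over both; the dotted line is the CPM minimum of 1. Control squares lie to the right of the circles for the most abundant members, such as Snora81 (12.4 CPM under compressive force, 16.6 CPM in the control), and Snora44 and Snora62 have the widest gaps among members that reach the minimum.

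Of the 38 members, 32 reached the CPM minimum. Their CPM ranged from 0.453 to 12.4 with a median of 2.53 under compressive force, and from 1.16 to 16.6 with a median of 3.13 in the control. The median log2 ratio of these 32 was -0.32, beside -0.01 over all 14001 rows tested. Of the 32, 24 (75%) had ratios below 1, beside 51.4% of all rows tested and 46% of tested rows no more abundant than Snora81. Members were called lower in 2 cases (6.25%) and higher in 0. Over all rows tested, 0.929% were called lower and 3.06% higher. The members' share is shaped by the CPM minimum. Snora44, Snora62, Snora20 and Snora41 reached it in the control library alone, so 4 members entered through the library in which they were high, and 0 entered through the compressive force library alone. With no CPM minimum, 3 of the 37 detected members were called lower and 2 higher. Nothing is therefore read from the split of calls. Weakly expressed rows are called more often. Among the 5382 tested rows no more abundant than Snora81, 2.34% were called lower and 6.22% higher. Intervals lay wholly below 1 for 9 members (28.1%) and wholly above 1 for 1 member, while 22 included 1. The shares of tested rows with an interval below 1 were 28.6% over all rows and 14.5% over rows no more abundant than Snora81. The member share was close to that of all rows, and was higher than that of rows in the members' range of abundance. However, Snora44 and Snora62 are among the 9 members with an interval below 1. All 4 members that entered through the control library alone are among the 24 with ratios below 1. The median of -0.32 includes them too, and with no CPM minimum it was -0.27. Nothing is therefore read from these shares either.

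**Figure D2:**
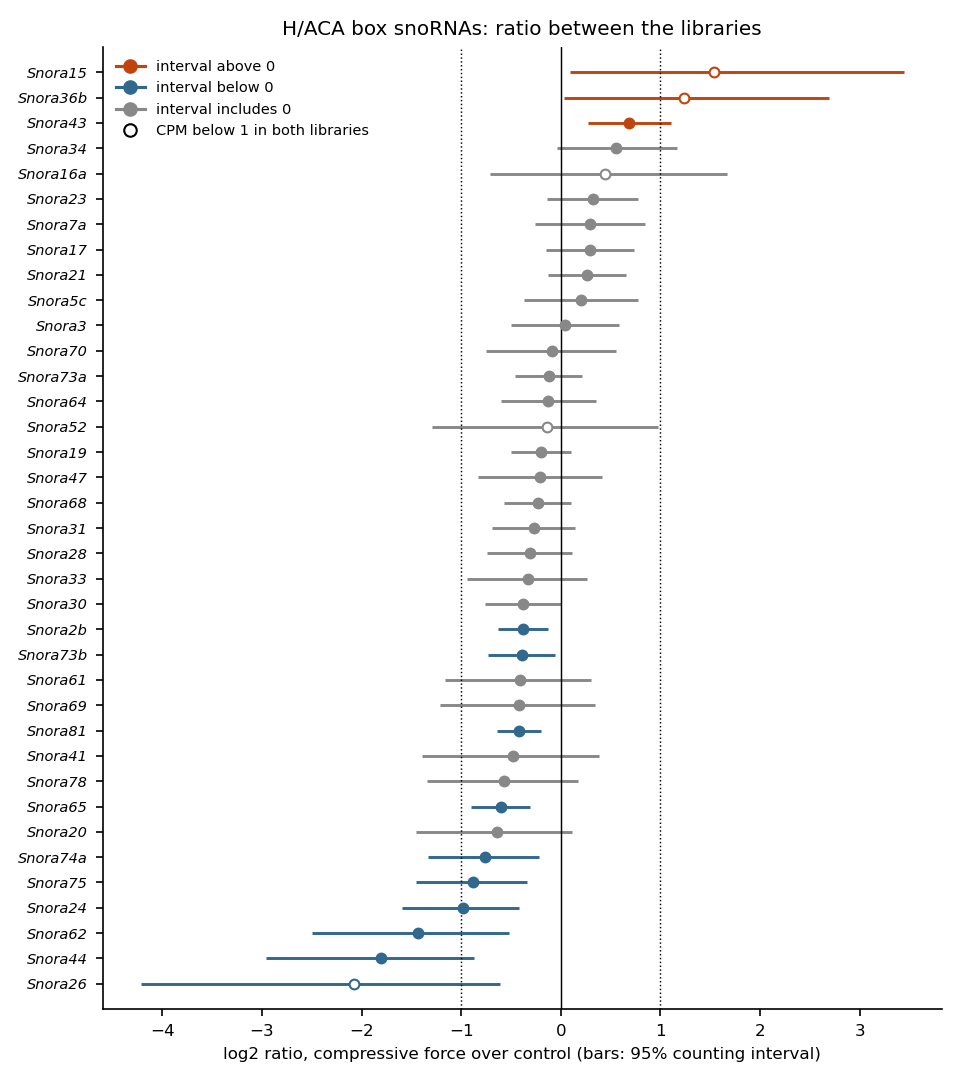
Log2 ratio of compressive force over control for the 37 detected H/ACA snoRNAs with 95% counting intervals as bars; open circles had a CPM below 1 in both libraries, and dotted lines mark a 2-fold difference. Most points lie left of 0, Snora44 and Snora62 are the filled points beyond the left dotted line, and Snora43 is the filled point with an interval above 0.

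The members called lower were Snora44 and Snora62. Snora44, whose human relative guides a site in the small-subunit rRNA, lies on chromosome 4 at 132309953 to 132310069 inside the noncoding host Snhg12. It had 11 counts under compressive force, 0.453 CPM, and 41 counts in the control, 1.64 CPM. Its ratio was 0.286 (0.128 to 0.548), or 3.50 times lower. Snora62, also called E2, guides the large-subunit rRNA in human cells and lies on chromosome 9 at 120130434 to 120130563 inside Rpsa, which encodes a protein of the small ribosomal subunit. It had 13 counts under compressive force and 37 in the control, a ratio of 0.371 (0.177 to 0.698). Both calls rest on at most 41 counts in a library, and both were below the CPM minimum under compressive force.

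Snora24, a guide for the small-subunit rRNA in human, stood just outside the fold limit. It lies on chromosome 3 at 123507937 to 123508066 inside Snhg8 and had 38 counts under compressive force and 78 in the control, a ratio of 0.506 (0.332 to 0.750). Snora75, in nucleolin (Ncl), a major nucleolar protein that acts in ribosome assembly, had 43 counts under compressive force and 82 in the control, a ratio of 0.544 (0.365 to 0.792). Snora74a, also called U19, had 45 counts under compressive force and 79 in the control, a ratio of 0.590 (0.398 to 0.858). These 3 members were between 1.69 and 1.98 times lower, and their intervals lay below 1.

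The most abundant members had smaller differences with narrower intervals. Snora81, a large-subunit rRNA guide in human, lies on chromosome 16 at 23110770 to 23110933 in the translation initiation factor gene Eif4a2. It had 301 counts under compressive force and 415 in the control, a ratio of 0.749 (0.643 to 0.870). Snora2b, in the chromatin-complex gene Kansl2 on chromosome 15, had 238 counts under compressive force and 319 in the control, a ratio of 0.770 (0.648 to 0.914). Snora65, or U65, lies on chromosome 2 inside Rpl12. It had 156 counts under compressive force and 244 in the control, a ratio of 0.660 (0.536 to 0.810). All 3 were lower under compressive force beyond counting error, and none reached the fold limit. The interval of Snora30, with 103 counts under compressive force and 138 in the control, ended at 1.001 and so just included 1.

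Snora73a and Snora73b, the U17 snoRNAs, differ from most of the family because they act in cleavage of the precursor of the small-subunit rRNA and not in pseudouridylation. Both have 205 bases and lie in Snhg3 on chromosome 4. Snora73a had 142 counts under compressive force and 159 in the control, a ratio of 0.922 (0.730 to 1.16). Snora73b had 127 counts under compressive force and 172 in the control, a ratio of 0.763 (0.601 to 0.964). Their intervals overlap for most of their length, so a difference between the pair was not detectable at this depth. They are related copies, and how reads matching both were handled is unknown, so the split between them is uncertain.

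Ratios above 1 were found for 8 of the 32 members. Snora43, in Snhg7 on chromosome 2, had 128 counts under compressive force and 82 in the control. Its ratio of 1.61 (1.21 to 2.15) was the highest of these and the only one whose interval lay above 1. Snora34 in Kansl2 had 60 counts under compressive force and 42 in the control, a ratio of 1.47 (0.977 to 2.24). Snora23 in the importin gene Ipo7, Snora7a in Rpl32, Snora17 in Snhg7 and Snora21 in Rpl23 had ratios from 1.20 to 1.25, Snora5c had 1.15, and Snora3 had 60 counts in each library. All 7 of these intervals included 1.

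The other members above the minimum had ratios from 0.640 for Snora20 to 0.939 for Snora70, with intervals that included 1. Snora68 had 138 counts under compressive force and 167 in the control, and Snora19 had 172 under compressive force and 203 in the control. Snora31, Snora28, Snora33, Snora47 and Snora64 had ratios between 0.794 and 0.918. Snora61, in Snhg12, and Snora69, Snora41 and Snora78 had ratios between 0.675 and 0.751 on at most 40 counts per library. Among the hosts of these members and of Snora30 and Snora5c, Rps12, the host of Snora33, had a ratio of 0.638 (0.482 to 0.838). That ratio rests on 87 counts under compressive force and 141 in the control. These are few beside the 5495 and 5686 of Rpl32, so the Rps12 counts are uncertain. Ratios from 0.744 to 0.974 were found for Zbed3 (Snora47), Tbrg4 (Snora5c), Srcap (Snora30), Eif5 (Snora28), Rpl39 (Snora69), Eif3a (Snora19), Eef1b2 (Snora41), Tpt1 (Snora31), Rpl10 (Snora70) and the chaperonin gene Tcp1 (Snora20). At these depths the median interval of a member spanned a 2.13-fold range, which is wide enough to hold differences such as that of Snora81.

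Below the CPM minimum in both libraries were 6 members, with 68 counts in all under compressive force and 60 in the control. Snora26, in the noncoding RNA gene Dancr, had 4 counts under compressive force and 19 in the control, a ratio of 0.238 (0.0538 to 0.654). Snora15 in the chaperonin gene Cct6a had 15 counts under compressive force and 5 in the control, a ratio of 2.90 (1.07 to 10.9). Snora36b in Rab3gap2 had 19 counts under compressive force and 8 in the control, a ratio of 2.36 (1.02 to 6.47). These 3 pass the fold and interval limits but not the CPM minimum. Snora16a and Snora52 had at most 16 counts in either library and intervals that included 1. Snora35, a brain snoRNA from an intron of the serotonin receptor gene Htr2c, had 0 counts in both libraries, as did Htr2c. A count of 0 allows up to 0.124 CPM under compressive force and 0.12 CPM in the control.

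Several members share a host, and co-hosted members did not all have like ratios. There were 5 such hosts with 11 members. In Snhg12, Snora44 had a ratio of 0.286, Snora61 of 0.751 (0.447 to 1.24) and Snora16a of 1.36 (0.611 to 3.19), and the intervals of Snora44 and Snora16a did not overlap. In Kansl2, Snora2b at 0.770 and Snora34 at 1.47 also had intervals that did not overlap. In Snhg7, Snora43 at 1.61 and Snora17 at 1.22 (0.900 to 1.67) lay on the same side of 1. By RefSeq span, Snora64 and Snora78 lie in Rps2, and Snora78 also lies in Snhg9. Snora78 is at 24719676 to 24719832 on chromosome 17. The Rps2 start used for promoters is at 24720063 on the plus strand, so Snora78 lies before it. Rps2 is listed at 0 in both libraries, so reads did not settle the choice of Rps2 over Snhg9. Which gene hosts Snora78 is therefore uncertain. Rps2 is a ribosomal protein gene that all cells use, so its counts, and those of other ribosomal protein genes with near-identical copies, are uncertain.

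By kind of host, all 4 groups of members had summed ratios below 1. The 4 members in translation factor genes had 578 counts under compressive force and 756 in the control, a ratio of 0.789 (0.707 to 0.880). The 12 members in ribosomal protein genes had 771 counts under compressive force and 937 in the control, a ratio of 0.849 (0.771 to 0.935). They include Snora78, whose host is uncertain. The 10 members in noncoding hosts had a ratio of 0.860 (0.773 to 0.957) and the 12 in other protein-coding genes 0.876 (0.796 to 0.965). The 4 intervals overlap one another, so no difference between kinds of host was detectable.

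The hosts themselves had a median log2 ratio of -0.15 over the 30 with counts above the CPM minimum, and 0 were called in either direction. Over all rows tested, 0.929% were called lower and 3.06% higher. Their summed counts were 108826 under compressive force and 112534 in the control, a ratio of 0.998 (0.990 to 1.01) that included 1. Intervals below 1 were found for 17 of the 30 (56.7%) and above 1 for 6, beside 28.6% and 26.3% of all rows tested. Those background shares were not matched to the abundance of the hosts, and intervals narrow as counts rise. Host and member could be compared for 30 members. The member interval overlapped that of its host in 24 of them, lay below it in 5 and above it in 1. Those below included Snora81, Snora65, Snora24 and Snora62, and the 1 above was Snora34. Rpsa had 30639 counts under compressive force and 28064 in the control, a ratio of 1.13 (1.11 to 1.15), against the ratio of 0.371 for its Snora62. Snhg8 had 299 counts under compressive force and 250 in the control, a ratio of 1.23 (1.04 to 1.47), against 0.506 for Snora24. Snhg4, by contrast, had 91 counts under compressive force and 154 in the control, a ratio of 0.611 (0.465 to 0.795), close to the 0.590 of Snora74a. Eif4a2 had a ratio of 1.04 (0.970 to 1.12), Rpl12 of 0.903 (0.817 to 0.999) and Ncl of 0.727 (0.698 to 0.757). Across the 30 members, Spearman's rho between the log2 ratios of member and host was 0.19 and Pearson's r 0.17. This weak correlation is given as a description, since members of 1 host share its value and all points share the same libraries. Whether reads of unspliced host transcripts were counted in the snoRNA rows was not tested.

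**Figure D3:**
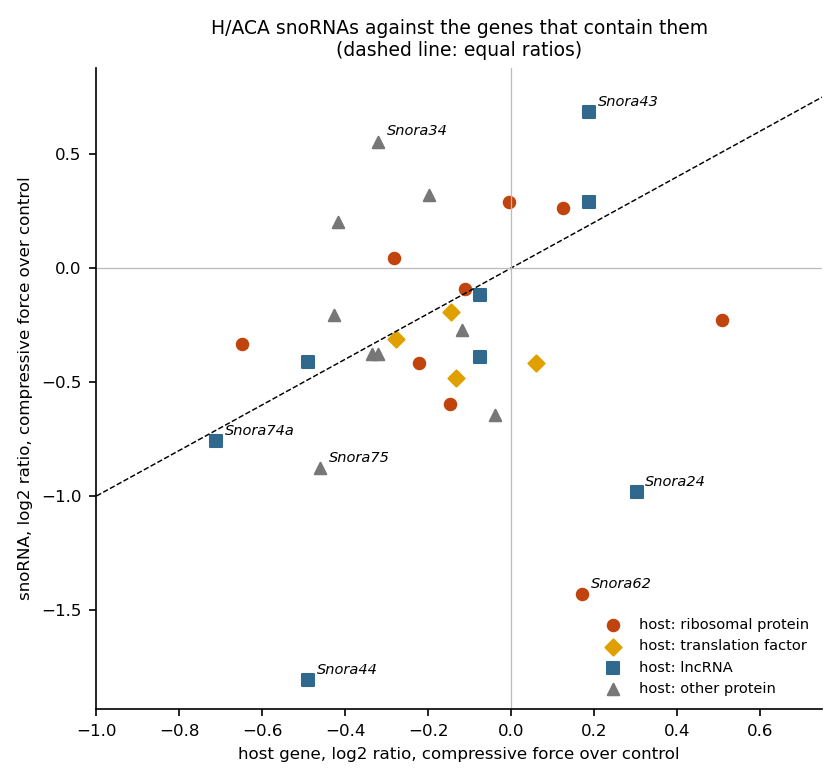
Log2 ratio of compressive force over control of each H/ACA snoRNA (vertical) against that of the gene containing it (horizontal), for the 30 members above the CPM minimum whose host had counts; symbols show the kind of host and the dashed line marks equal ratios. Points scatter widely around the line, with Snora62 and Snora24 far below it although Rpsa and Snhg8 lie right of 0.

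The proteins of the H/ACA particle were also less abundant as transcripts under compressive force. Dyskerin (Dkc1), the pseudouridine synthase, had 2200 counts under compressive force and 3244 in the control, a ratio of 0.700 (0.663 to 0.739). Nop10 had 375 counts under compressive force and 518 in the control, a ratio of 0.747 (0.652 to 0.855). Gar1 had 723 counts under compressive force and 979 in the control, a ratio of 0.762 (0.691 to 0.840). Nhp2 had 1274 counts under compressive force and 1580 in the control, a ratio of 0.832 (0.772 to 0.896). All 4 core proteins had intervals below 1, their median log2 ratio was -0.41, and none reached the fold limit.

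The whole list held 33 genes of the particle, its assembly, end trimming, telomerase and the stand-alone pseudouridine synthases. Neither direction had a call (0 of 33), beside 0.929% called lower and 3.06% called higher over all rows tested. The median of the log2 ratios was -0.21. Intervals lay below 1 for 21 of 33 (63.6%) and above 1 for 3, beside 28.6% and 26.3% of all rows tested. Intervals narrow as counts rise, and these background shares were not matched to the abundance of the listed genes. Among 11 assembly and Cajal body genes, 6 had intervals below 1 and 2 above. Their lowest were Nolc1, a nucleolar phosphoprotein that binds these particles, at 0.692 (0.648 to 0.739), and the assembly chaperone Shq1 at 0.712 (0.548 to 0.918). Their highest were the ATPase Ruvbl2 at 1.25 (1.18 to 1.32) and Nufip1 at 1.24 (1.12 to 1.37), both assembly factors, while its partner Ruvbl1 was at 0.856 (0.797 to 0.920). Naf1, which holds the place of Gar1 in the immature particle, was at 0.787 (0.729 to 0.851).

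For the 10 genes listed under end trimming the log2 ratios had a median of -0.09, and 5 intervals lay below 1 and 1 above. Whether each of these genes acts on snoRNA ends was not tested. The exoribonuclease Dis3 was at 0.750 (0.713 to 0.790) and Pnldc1, a relative of Parn, at 0.557 (0.416 to 0.736) with 78 counts under compressive force and 145 in the control. Parn itself was at 1.23 (1.06 to 1.43), and Rbm7, of the nuclear exosome targeting complex, at 1.07 (0.985 to 1.16). All 6 stand-alone pseudouridine synthases, which need no guide RNA, had intervals below 1. They ran from Pus3 at 0.664 (0.568 to 0.773) and Trub2 at 0.707 (0.644 to 0.775) to Pus7 at 0.872 and Pus10 at 0.893. Telomerase RNA (Terc), which ends in an H/ACA domain, had 249 counts under compressive force and 288 in the control, a ratio of 0.892 (0.750 to 1.06). Tert, the telomerase protein, had 44 counts under compressive force and 36 in the control, and its interval included 1.

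**Figure D4:**
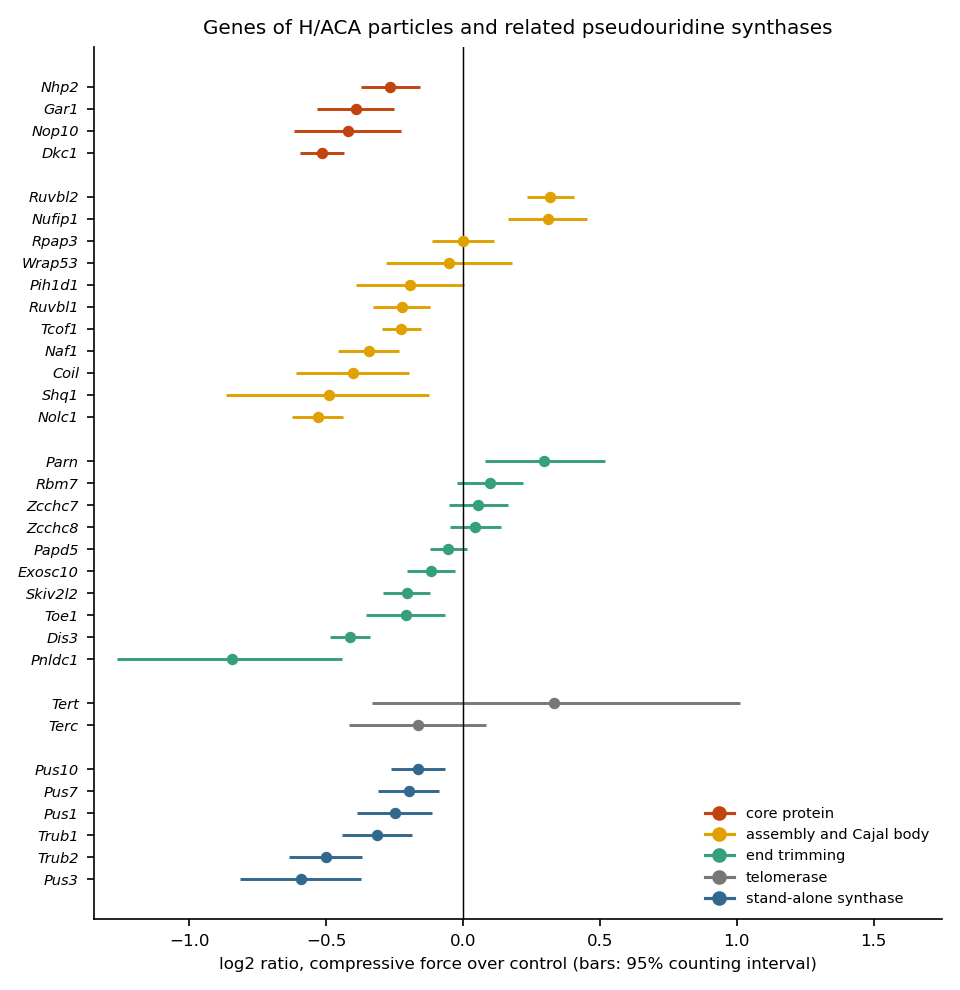
Log2 ratio of compressive force over control with 95% counting intervals (bars) for 33 genes of H/ACA particles and related synthases, coloured by group. All 4 core proteins and all 6 stand-alone synthases lie left of 0 with their intervals, while Ruvbl2, Nufip1 and Parn lie right of it.

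Among other small RNAs, the C/D box snoRNAs (76 Snord rows), which guide ribose methylation, had a summed ratio close to that of the H/ACA snoRNAs. They had 3385 counts under compressive force and 4256 in the control, a ratio of 0.821 (0.784 to 0.859). Of 57 above the CPM minimum, 5 (8.77%) were called lower and 0 higher, with a median log2 ratio of -0.19. The shares over all rows tested were 0.929% lower and 3.06% higher. Among tested rows no more abundant than Snora81 they were 2.34% and 6.22%. How many C/D rows entered through 1 library alone was not examined, so nothing is read from this split. The summed intervals of both snoRNA families overlap. The 9 Scarna rows went the other way, with 578 counts under compressive force and 516 in the control. Their summed ratio was 1.16 (1.02 to 1.30), an interval that does not overlap that of the H/ACA snoRNAs. Scarna2, with 272 counts under compressive force and 238 in the control, supplied the most reads, at a ratio of 1.18 (0.987 to 1.41). Of the 7 above the CPM minimum, 6 had ratios above 1, namely Scarna2, Scarna3a, Scarna3b, Scarna8, Scarna9 and Scarna10, and Scarna6 was at 0.711 (0.476 to 1.05). None of the 7 intervals excluded 1. Scarna17 had 7 counts under compressive force and 17 in the control, and Scarna13 had 7 under compressive force and 6 in the control. In human, Scarna2, Scarna9 and Scarna17 are C/D box RNAs and Scarna6 and Scarna10 carry both kinds of box, so these rows are not all of the H/ACA class.

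**Figure D5:**
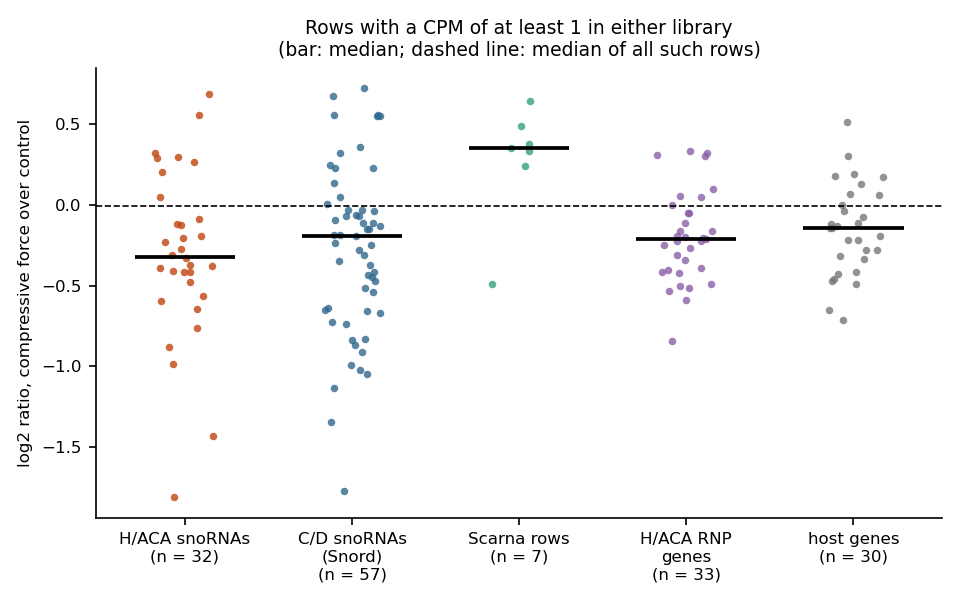
Log2 ratio of compressive force over control of single rows that reached a CPM of 1 in a library, by class, with black bars at the medians and a dashed line at the median of all such rows (-0.01). The H/ACA median is -0.32, the C/D median -0.19 and the Scarna median 0.35, and the points of the H/ACA class reach from -1.81 to 0.68.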

How the data were processed

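RNA of 1 compressive force and 1 control library of OCCM-30 cells was sequenced, per the labels. The authors deposited whole-number read counts per gene with no normalization. The submitters' processing notes list HISAT2 and GRCm38. No source used here names the counting tool, annotation version, strand setting or treatment of multiply aligned reads, so counts of near-identical or overlapping genes are uncertain, and snoRNA rows may hold host reads.

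The totals of 24296292 (compressive force) and 25049919 (control) counts were scaled by TMM in edgeR 4.0.16 (R 4.3.3). Counting intervals are exact 95% conditional binomial (Clopper-Pearson) intervals from SciPy 1.17.1, for counting error only. A floor of 3 counts stands for a count of 0. No p-value was computed. The calling rule was tested on simulated data with counting error only, which cannot show how it behaves with spread between cultures. Hosts are genes whose RefSeq span (GRCm38.p6) contains the snoRNA; the strand of the snoRNAs was not in the table, so it was not required, contrary to the plan. Exons and introns were not annotated there. Where several genes contained a snoRNA, the one with most counts was taken.

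Members named were all those above the CPM minimum, all called ones, the U17 pair and the Scarna rows. Of the particle genes, all core proteins and the 2 highest and 2 lowest of each group were named, and Ruvbl1 and Naf1 were chosen after their values were seen, as were members below the CPM minimum and the promoters shown. Some genes that the rule selects are left out of the text. Members and lists were chosen with earlier results of these data known.

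Alternatives were scaling by total counts, by DESeq2 1.42.0 size factors or by upper quartiles, no CPM minimum, a minimum of 5, a prior count of 5, a fold limit of 1.5, no interval requirement and other member definitions.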

Additional observations from a re-analysis of the deposited data

How the results depend on the processing

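The calls of members were the same under every scaling tried and differed with the fold and CPM limits. The median log2 ratio of the H/ACA snoRNAs stayed between -0.38 (a CPM minimum of 5) and -0.27 (no CPM minimum) under the alternatives set beforehand, and the summed ratio, for which no other limit was tried, between 0.839 (DESeq2 size factors) and 0.852 (upper-quartile factors). Snora44 and Snora62 were called lower under all 3 other scalings and at a prior count of 5. At a CPM minimum of 5, 9 members remained and 0 were called lower, by construction, since neither reaches that level. At a fold limit of 1.5, 6 members were called lower (with Snora24, Snora65, Snora74a and Snora75) and 1 higher (Snora43), 2 particle genes were called (Pnldc1 and Pus3) and 2 hosts (Rps12 and Snhg4). With no CPM minimum, 2 members were called higher (Snora15 and Snora36b) and 3 lower (with Snora26). Restricting to Snora rows or leaving out scaRNAs with a C/D box changed nothing, since the definition selected only Snora rows. Adding the 9 Scarna rows, an alternative chosen after seeing the data, gave a median of -0.23 and a summed ratio of 0.887. No paired analysis was possible because each group has 1 library and the labels give no replicate numbers. Counts limit precision: the members above the minimum had a median of 61.5 counts under compressive force and 78.5 in the control, and spread between cultures is unmeasured.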
